A study of Mus musculus with 80 samples.

Results

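The Hox genes of mouse lie in 4 clusters, Hoxa to Hoxd, and were followed here in embryonic stem cells with and without Mll2 and in the embryoid bodies made from them. All rows whose gene symbol was 1 of 38 named Hox genes were taken from 5 deposited tables of expression values, 10 in Hoxa, 10 in Hoxb, 9 in Hoxc and 9 in Hoxd, out of 24508 gene symbols in each table. The cells carry a Mll2F/F allele (Mll2, gene symbol Kmt2b) and CreERT2 on a C57Bl/6 background, so that 4-hydroxytamoxifen given for 96 h deletes the gene in the cells called KO, while cells called WT have the same alleles and received carrier. RNA was sequenced at day 0 (stem cells before aggregation) and at days 3, 6 and 9 of embryoid body culture, and nascent RNA was sequenced by PRO-seq (precision nuclear run-on sequencing, which reads RNA still held by engaged polymerase) in stem cells. Each day and genotype had 2 libraries, and so did each genotype in PRO-seq. The deletion and the drug coincide in every KO library, so their effects cannot be told apart, and all cells derive from a single floxed line as far as the labels state.

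Hox proteins are homeodomain transcription factors that give cells along the head to tail axis their position. Within each cluster the genes are numbered by paralogue group. Genes of low number lie at the 3′ end and are switched on first and furthest forward in the embryo, and genes of high number lie at the 5′ end and are switched on later and further back. In embryonic stem cells most Hox promoters are bivalent. They carry the active mark H3K4me3, which Mll2 deposits there, together with the Polycomb mark H3K27me3. Mll2 has a CXXC domain that binds unmethylated CpG dinucleotides.

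Promoter sequences are given for the 3 genes on which the PRO-seq results turn most. Hoxa2 and Hoxd1 were the highest members of their clusters, and Hoxc4 was chosen after its values were seen. Each is the 300-base window of RefSeq on build GRCm38.p6, from 250 bases before to 50 after the annotated start, written 5′ to 3′ on the strand of the gene with CpG dinucleotides in capitals. The Hoxd1 window is chr2:74762730-74763029 on the + strand, that of Hoxa2 is chr6:52164782-52165081 on the - strand, and that of Hoxc4 is chr15:103034145-103034444 on the + strand.
Hoxd1: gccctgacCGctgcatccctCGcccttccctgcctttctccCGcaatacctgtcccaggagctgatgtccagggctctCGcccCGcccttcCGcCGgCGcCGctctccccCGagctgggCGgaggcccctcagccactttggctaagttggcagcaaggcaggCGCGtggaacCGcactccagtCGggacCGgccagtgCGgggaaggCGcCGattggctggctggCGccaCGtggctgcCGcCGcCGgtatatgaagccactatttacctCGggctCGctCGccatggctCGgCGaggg
Hoxa2: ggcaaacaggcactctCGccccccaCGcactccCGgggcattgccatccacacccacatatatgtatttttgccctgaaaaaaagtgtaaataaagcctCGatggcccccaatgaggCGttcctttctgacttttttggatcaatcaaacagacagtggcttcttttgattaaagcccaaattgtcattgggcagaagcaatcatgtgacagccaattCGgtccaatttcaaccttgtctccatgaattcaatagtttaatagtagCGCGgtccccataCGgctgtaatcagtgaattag
Hoxc4: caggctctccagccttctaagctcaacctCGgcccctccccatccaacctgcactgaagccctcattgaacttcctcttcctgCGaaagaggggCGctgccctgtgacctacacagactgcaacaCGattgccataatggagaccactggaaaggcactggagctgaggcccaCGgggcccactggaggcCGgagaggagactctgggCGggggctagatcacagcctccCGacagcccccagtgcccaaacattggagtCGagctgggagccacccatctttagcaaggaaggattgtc
The Hoxd1 window held 29 CpG, against 9 in Hoxa2 and 9 in Hoxc4. The median over 32851 windows of the same length was 7. For the members, 24 windows of 22 genes were in the table, and they held between 4 (Hoxa9, Hoxd4 and 1 of the starts of Hoxd11) and 45 CpG (Hoxa13), with a median of 14.5. Hoxd13 had 37. AGGTCA, a core site of retinoic acid receptors, was searched on both strands and occurred in 7 of the 24 Hox windows (29.2%) and in 16.3% of all windows. The 7 were those of Hoxa5, Hoxb4, Hoxc4, Hoxd3, Hoxd4, Hoxd8 and Hoxd10, and the Hoxd1 window held none. TTTATG, a form of the site of the caudal (Cdx) factors, occurred on either strand in 5 Hox windows (20.8%) and in 11.9% of all. TATAAA occurred on either strand in 4 Hox windows (16.7%) and in 13.6% of all, with 2 copies each in those of Hoxb8 and Hoxd13.

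Values are in FPKM, fragments per kilobase of gene length with a scaling per library, and reads are whole numbers recovered from them. How that scaling was made is not given in the sources used here. In nascent RNA most Hox genes had reads in WT stem cells, at low levels. Of the 38 members, 10 had a WT mean of at least 1 FPKM in PRO-seq, 17 of at least 0.5 and 29 of at least 0.1, and 34 had reads in all 4 libraries. Of all 24508 gene symbols, 14589 had a WT mean of at least 1 FPKM. A level near 0.1 FPKM was common among all genes, since the WT mean of Hoxd11, 0.0966 FPKM, exceeded that of 26.7% of them. The values of single libraries ran from 0 to 6.81 FPKM. The level followed no gradient along the clusters, as the plot of PRO-seq values by paralogue number shows: 1 or 2 genes of each cluster stood well above their neighbours. The 4 clusters had summed PRO-seq levels in WT of 12.3 and 12.0 FPKM for Hoxa, 7.71 and 8.24 for Hoxb, 6.75 and 5.75 for Hoxc, and 7.91 and 7.39 for Hoxd.

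**Figure D1:**
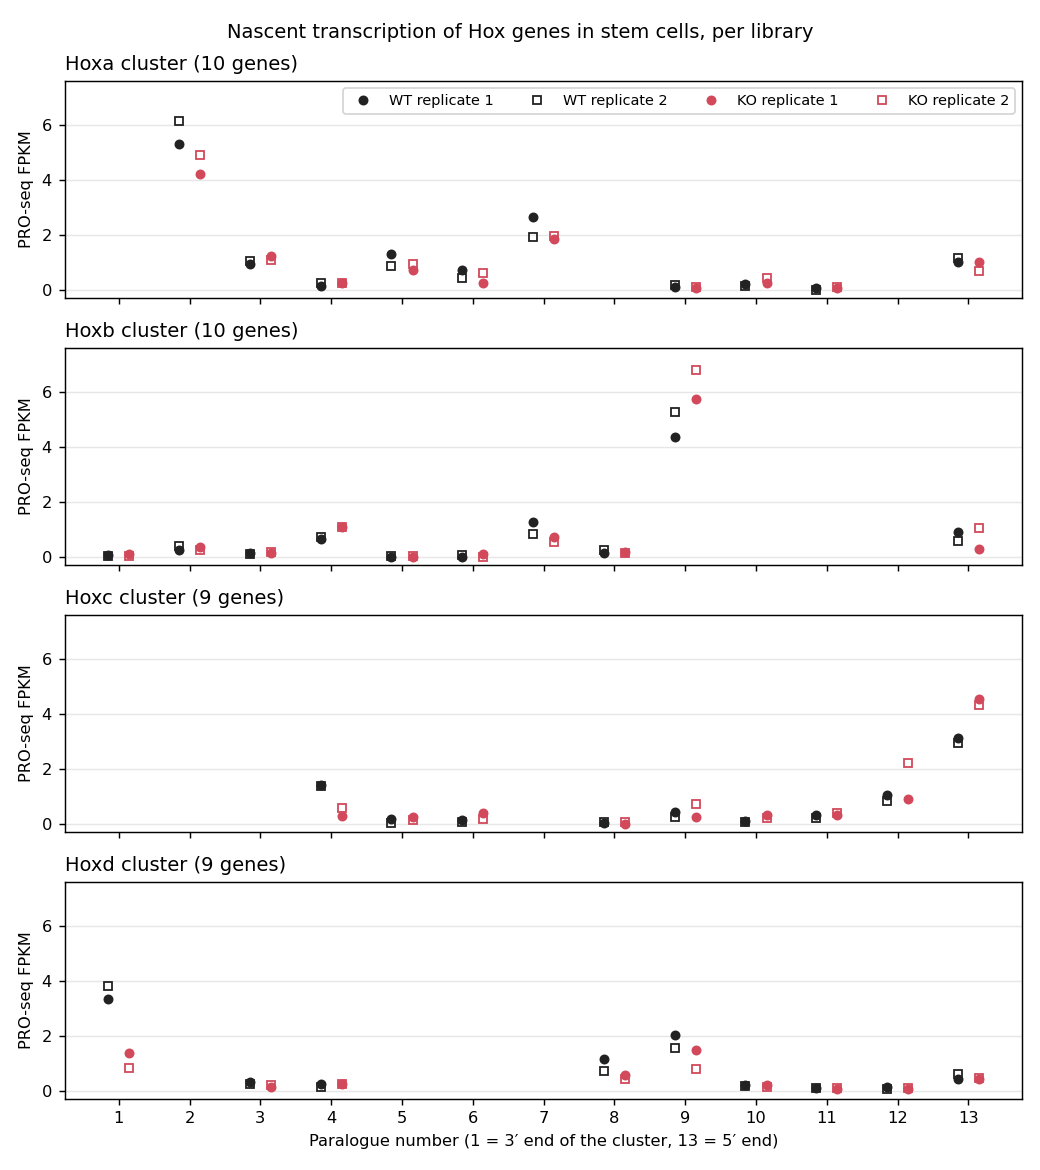
PRO-seq level of each Hox gene in stem cells, in FPKM (vertical axis), by cluster (panels) and paralogue number (horizontal axis). Each point is 1 library, black for WT and red for KO, filled for replicate 1 and open for replicate 2. Hoxa2, Hoxb9, Hoxc13 and Hoxd1 stand highest in their clusters, and the Hoxd1 points of KO (1.38 and 0.811) lie well below those of WT (3.35 and 3.80).

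Hoxa2, which patterns the hindbrain and the second branchial arch, was highest in WT. It had 5.30 and 6.15 FPKM in WT and 4.20 and 4.90 in KO, from 131 to 190 reads per library. Both KO libraries lay below both WT libraries, but the difference did not pass the test across all genes, limma on log2(FPKM + 1) with Benjamini-Hochberg adjustment (log2 difference -0.28, SE 0.13, adjusted p = 0.332). The WT mean of Hoxa2 exceeded that of 62.1% of all gene symbols.

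Hoxb9, which patterns the thoracic skeleton, had 4.37 and 5.26 FPKM in WT and 5.76 and 6.81 in KO, with the KO libraries above. Hoxc13, needed for hair and nail keratins, had 3.11 and 2.93 FPKM in WT and 4.54 and 4.32 in KO, again without overlap. Neither passed the limma test: the log2 difference was 0.33 (SE 0.13, adjusted p = 0.287) for Hoxb9 and 0.43 (SE 0.11, adjusted p = 0.127) for Hoxc13. Both genes were measured from 122 to 353 reads per library.

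Hoxd1, which in mice shapes the endings of pain-sensing neurons, had the largest difference of the 8 members tested by limma. It had 3.35 and 3.80 FPKM in WT and 1.38 and 0.811 in KO, from 126 and 121 reads against 45 and 29. Both KO libraries were far below both WT libraries. Hoxd1 fell by 1.14 on the log2(FPKM + 1) scale (SE 0.17, adjusted p = 0.0414, limma), and on summed reads scaled by library the KO level was 0.304 of WT (95% exact counting interval 0.231 to 0.396, which covers counting error only). It was the single call among the 8 members with a mean of at least 1 FPKM, the level that a gene needed to be tested; 1.50% of the 14535 genes tested were called. The call was lost when any 1 of the 4 libraries was left out, with log2 differences from -1.33 to -0.94 and adjusted p from 0.0716 to 0.127.

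The other 4 members tested in PRO-seq did not pass. Hoxa7 had 2.64 and 1.92 FPKM in WT and 1.84 and 1.95 in KO, and the groups overlapped. Hoxa3, needed for the thymus and parathyroid, had 0.935 and 1.03 in WT and 1.21 and 1.06 in KO. Hoxd9, a gene of the lumbar spine and limb, had 2.03 and 1.56 in WT and 1.46 and 0.793 in KO, with KO below WT. Hoxc12 had 1.06 and 0.831 in WT and 0.878 and 2.22 in KO, so that a single KO library carried its higher KO mean. The adjusted p (limma) of these 4 genes ran from 0.363 to 0.751, and no unadjusted p was below 0.05.

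Members below 1 FPKM can be tested on the recovered reads. Limma's voom model, run on every gene with at least 10 reads over the 4 PRO-seq libraries, was added after the data were seen. It tested 33 members and called 2, both lower in KO, when 3.72% of 18164 genes were called and 2.35% were called lower. They were Hoxd1 (log2 difference -1.73, SE 0.34, adjusted p = 0.00434) and Hoxc4 (-1.74, SE 0.43, adjusted p = 0.0236). Hoxc4, a gene of the cervical and thoracic vertebrae, had 57 and 46 reads in WT and 9 and 22 in KO, or 1.42 and 1.35 FPKM against 0.258 and 0.577, and the groups lay far apart. Its locus overlaps the gene model Gm30528, and how reads of overlapping genes were counted is not given in the sources used here. With a filter of 0.1 FPKM in place of 1, limma tested 31 members and again called Hoxd1 alone (adjusted p = 0.0457), when 1.47% of all genes were called, and Hoxc4 had an adjusted p of 0.0629. Hoxc10, with 4 and 2 reads in WT and 11 and 8 in KO, lay 3.21 times higher in KO on summed reads (counting interval 1.23 to 9.83) and did not pass voom (adjusted p = 0.252). Hoxd1 lost its voom call without KO replicate 2 (adjusted p = 0.154), and Hoxc4 without KO replicate 1 (0.316).

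Within the Hoxd cluster Hoxd1 was the single PRO-seq call by limma and by voom, and other genes had KO libraries below WT without passing. Of 9 Hoxd members with at least 10 reads, 4 had both KO libraries below both WT libraries (Hoxd1, Hoxd3, Hoxd8 and Hoxd9) and none had both above. Hoxd8 had 1.15 and 0.730 FPKM in WT and 0.554 and 0.410 in KO, a KO level of 0.501 of WT (counting interval 0.330 to 0.748), but did not pass voom (adjusted p = 0.359). Summed over the cluster, the Hoxd level was 7.91 and 7.39 FPKM in WT and 4.54 and 3.18 in KO, and Hoxd1 made up the larger share of that gap. The sums of Hoxb were 7.71 and 8.24 in WT and 8.68 and 10.0 in KO, and those of Hoxc 6.75 and 5.75 in WT and 7.17 and 8.78 in KO. Over all 33 members, 7 had both KO libraries below and 8 had both above, beside 25.2% and 25.0% of all 18164 genes with as many reads. The share of members whose groups did not overlap was thus near that of all genes in either direction.

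By paralogue number, groups 9, 2 and 13 had the highest summed PRO-seq levels, with group 2 above group 13 in both WT libraries and below it in both KO libraries. The 4 members of group 9 summed to 6.89 and 7.22 FPKM in WT and 7.51 and 8.39 in KO, mostly from Hoxb9. The 4 members of group 13 summed to 5.44 and 5.26 in WT and 6.24 and 6.47 in KO, mostly from Hoxc13. Group 2 summed to 5.54 and 6.55 in WT and 4.55 and 5.12 in KO, mostly from Hoxa2. Group 1 rested on Hoxd1: its sums were 3.40 and 3.82 in WT and 1.49 and 0.836 in KO, and Hoxb1 had at most 4 reads in any library. Hoxb5 and Hoxb6 had between 0 and 2 reads per library.

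The RNA tables show far less of the Hox genes than PRO-seq. No member had a WT mean of 1 FPKM at any day, and 1 member did so in KO, Hoxc13 at days 6 and 9. At day 0 the members together took 124 to 241 reads per library of at least 29018998, against 1131 to 1407 reads in PRO-seq from shallower libraries. In RNA, 2 to 6 members a day had no read in any of the 4 libraries, and Hoxa6 had none at any day. All 10 members with a WT PRO-seq mean of at least 1 FPKM were below 1 FPKM in WT RNA at day 0, which was so for 26.0% of the 14589 genes at or above that PRO-seq level.

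Hoxa2 had the highest WT PRO-seq level and few reads in RNA. Its 5.73 FPKM in WT PRO-seq (mean of 2) stood beside 0.0871 and 0 FPKM in WT RNA at day 0, from 5 and 0 reads, and no KO library had a read at day 0. Hoxa5 and Hoxa3 had WT PRO-seq means of 1.07 and 0.984 and WT RNA means of 0.0174 and 0.0122. The Hoxa3 locus overlaps 8 gene models, Hoxa5 among them, so these values may not be separate. Hoxd13, the gene of the digits and external genitalia, stood at the other end, with 0.513 FPKM in PRO-seq and 0.492 in RNA. The 2 tables were scaled separately, so these are values side by side and not a ratio.

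**Figure D2:**
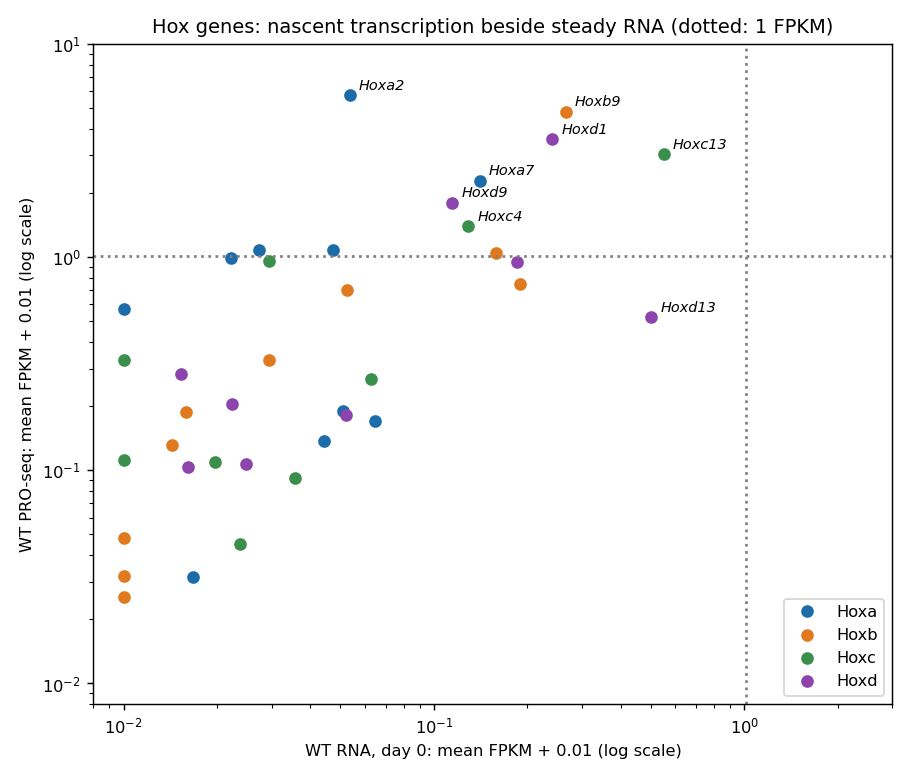
Mean WT level of the 38 Hox genes in PRO-seq (vertical axis) and in RNA at day 0 (horizontal axis), each in FPKM + 0.01 on a log axis, coloured by cluster; dotted lines mark 1 FPKM. Hoxa2 lies far to the left at 5.73 FPKM in PRO-seq, Hoxd13 lies near equal values, and no point is right of the RNA line.

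In RNA, no member reached the mean of 1 FPKM needed for the test at any day, so the test with that filter says nothing of them. Under a lower filter, a mean of at least 0.1 FPKM, limma tested 7, 5, 5 and 7 members at days 0, 3, 6 and 9. It called Hoxc13 at day 6 and at day 9, and no member at days 0 and 3, where 3 and 0 members had an unadjusted p below 0.05 and 2.28% and 17.2% of all genes were called. The voom model on genes with at least 10 reads tested 14, 13, 14 and 15 members and called 1, 1, 1 and 2. Over all genes that model called 5.27% at day 0, 19.3% at day 3, 13.9% at day 6 and 3.41% at day 9. The members that it called were Hoxd1, Hoxc6, Hoxc13, and Hoxa10 with Hoxc13, in order of day. The filter counts reads over both genotypes, so a sparse member can pass it through the group where it is high. Hoxc6 at day 3 (1 and 0 reads in WT, 10 and 6 in KO) and Hoxa10 at day 9 (0 and 0, 10 and 11) passed through KO. Hoxd4 at day 9 passed through KO as well, and so did Hoxa10, Hoxb1 and Hoxc6 at day 6, among others. Hoxd1, Hoxb7, Hoxc4 and Hoxd8 at day 0 passed through WT. The entry of such members into the test depended on the group where they were high, so their voom values are not independent support for a change.

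Hoxc13 had the highest RNA level of all members at every day as a mean over the 4 libraries, and it rose in KO at days 6 and 9. In WT alone at day 9 it stood below Hoxb1, Hoxb2, Hoxb13, Hoxd1 and Hoxd13. At day 0 it had 0.610 and 0.469 FPKM in WT and 0.958 and 0.895 in KO, and at day 3 it had 0.719 and 0.372 in WT and 1.11 and 0.725 in KO. At day 6 it had 0.390 and 0.427 in WT and 1.38 and 0.942 in KO, and at day 9 it had 0.177 and 0.100 in WT and 1.40 and 0.858 in KO. KO lay above WT without overlap at all 4 days, and in PRO-seq. The WT level was lower at day 9 than at the earlier days, while the KO level was not; days were scaled separately, so this is a description.

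By limma under the lower filter the difference in Hoxc13 was 0.61 on the log2(FPKM + 1) scale at day 6 (SE 0.12, adjusted p = 0.0394) and 0.89 at day 9 (SE 0.15, adjusted p = 0.0416), when 9.45% and 3.32% of all genes so tested were called. By voom it was 1.46 (SE 0.34, adjusted p = 0.0261) and 2.92 (SE 0.58, adjusted p = 0.0472). On summed reads, 21 in WT against 172 in KO at day 9, the KO level was 8.22 times that of WT (counting interval 5.21 to 13.6). Without WT replicate 1 or WT replicate 2 the voom call was lost at both days, with adjusted p of 0.125 and 0.122 at day 6 and 0.129 and 0.250 at day 9. The test of whether the KO effect on Hoxc13 differed between day 9 and day 0 did not pass (difference of log2 changes 2.13, SE 0.69, adjusted p = 0.136, voom over the 16 RNA libraries).

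Hoxd1 fell in KO at day 0, and its difference passed no test at the later days. At day 0 it had 13 and 14 reads in WT and 1 and 1 in KO, or 0.216 and 0.245 FPKM against 0.0179 and 0.0177. At day 3 it had 6 and 12 reads in WT and 4 and 4 in KO, at day 6 it had 8 and 4 against 14 and 12, and at day 9 it had 15 and 6 against 17 and 15. KO thus lay below WT at days 0 and 3, above WT at day 6, and overlapped WT at day 9. At day 0 Hoxd1 passed the filter on reads through WT. The fall at day 0 passed voom (log2 difference -3.15, SE 0.79, adjusted p = 0.0420), and on summed reads the KO level was 0.0774 of WT (counting interval 0.00892 to 0.308). That call was lost without KO replicate 1 (adjusted p = 0.140), KO replicate 2 (0.132) or WT replicate 2 (0.0654).

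The change in the KO effect on Hoxd1 was tested directly. The KO effect at day 6 exceeded that at day 0 by 4.20 on the log2 scale (SE 0.94, adjusted p = 0.0420, voom over the 16 RNA libraries), and at day 9 by 3.82 (SE 0.91, adjusted p = 0.0491). Of all 16420 genes so tested, 1.52% and 1.78% were called at days 6 and 9, and Hoxd1 was the only member among the 17 tested. At day 3 no member was called, beside 0.761% of all genes. With 1 of the 16 libraries left out in turn, the difference ran from 3.70 to 4.68 at day 6, where 4 of 16 fits kept the call, and from 3.09 to 4.51 at day 9, where 1 of 16 did. Hoxd1 could not be tested by limma on log2(FPKM + 1) at the filter of 1 FPKM, and at 0.1 FPKM it did not pass (0.41 at day 6 and 0.38 at day 9, SE 0.11, adjusted p = 0.0873 and 0.0963).

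Of the same cluster, Hoxd13 had KO libraries below WT at day 0 and Hoxd4 had them below at day 3, and both had them above at day 9. Neither gene was called at a single day by voom or by limma with no replicate block. Hoxd13 had 0.510 and 0.473 FPKM in WT and 0.188 and 0.133 in KO at day 0, and 0.146 and 0.159 in WT and 0.405 and 0.376 in KO at day 9. KO was below WT at day 0 and above it at day 9, without overlap on either day. Hoxd13 had adjusted p of 0.0924 at day 0 and 0.180 at day 9 by voom, and 0.0672 for the difference between day 9 and day 0 (2.84 on the log2 scale, SE 0.74). Hoxd4, which patterns the neck vertebrae, had 5 and 5 reads in WT and 2 and 2 in KO at day 3, and 0 and 1 reads in WT and 17 and 10 in KO at day 9. At day 0 Hoxd4 had a WT mean of 0.0124 FPKM and too few reads for voom, so no fall at that day is shown. Its adjusted p was 0.0681 at day 9 and 0.0548 for the difference between day 9 and day 0 (voom), a difference that limma with no filter on low values called for Hoxd4 (0.22 on the log2(FPKM + 1) scale, adjusted p = 0.0275).

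**Figure D3:**
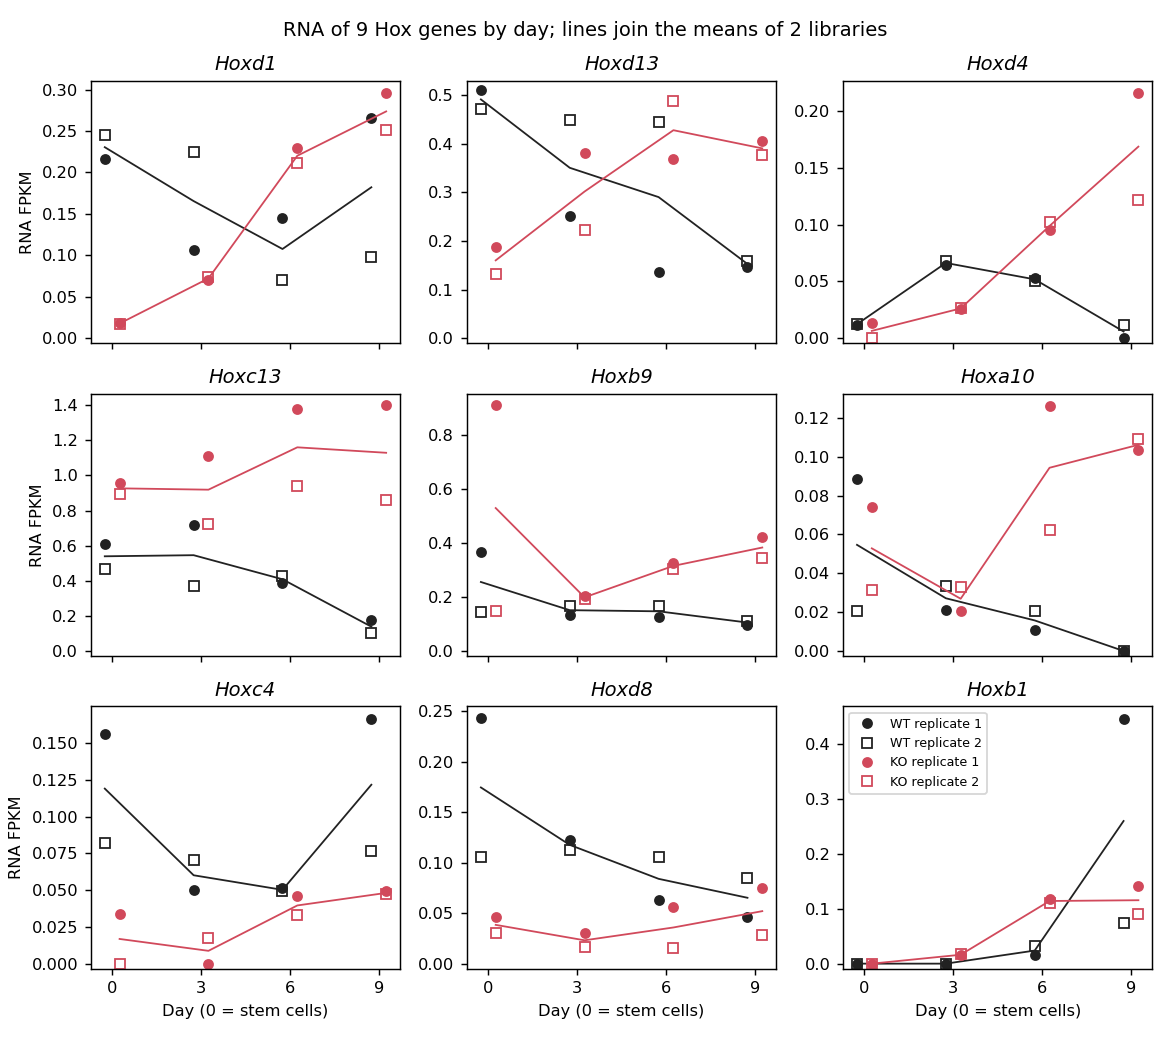
RNA level of 9 Hox genes in FPKM (vertical axes, scaled to each gene) at days 0, 3, 6 and 9 (horizontal axis). Points are libraries, black for WT and red for KO, filled for replicate 1 and open for replicate 2, and lines join the means of 2. Hoxd1 and Hoxd13 lie lower in KO at day 0 and Hoxd4 at day 3, Hoxd13 and Hoxd4 lie higher at day 9, Hoxc13 lies higher in KO at all days, and Hoxb1 at day 9 is high in 1 WT library (0.445).

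Among the other 5′ genes, Hoxa10, known for the uterus and the lumbar spine, had 0 and 0 reads in WT and 10 and 11 in KO at day 9, so that KO was at least 7.02-fold higher against a floor of 3 reads over the WT group. Hoxa10 thus passed the filter on reads through KO. It was called at day 9 by voom (adjusted p = 0.0374), but not without WT replicate 1 (0.142) or WT replicate 2 (0.210). At day 6 it had 1 and 2 reads in WT and 13 and 6 in KO, with an adjusted p of 0.0953, and Hoxa10 overlaps another gene model. In Hoxb9 KO lay above WT at days 3, 6 and 9, with 0.0979 and 0.113 FPKM in WT and 0.421 and 0.346 in KO at day 9 (adjusted p = 0.107, voom). At day 0 Hoxb9 had 0.367 and 0.145 in WT and 0.913 and 0.147 in KO, so that replicate 1 was high in both genotypes.

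Hoxb13, the gene at the 5′ end of its cluster, was the highest Hoxb member at day 6, with 0.103 and 0.223 FPKM in WT and 0.279 and 0.549 in KO (adjusted p = 0.204, voom). The highest Hoxa member was Hoxa7 at days 0, 3 and 9 and Hoxa10 at day 6. Hoxa7 had 0.111 and 0.150 FPKM in WT and 0.0683 and 0.0846 in KO at day 0, with KO below, and did not exceed 0.133 in any library at day 3 or 9. Hoxa13 had between 0 and 3 reads in every RNA library.

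Genes in the middle of the clusters were sparse. Hoxc6 had 1 and 0 reads in WT and 10 and 6 in KO at day 3, and so passed the filter on reads through KO. Its KO level was 15.8 times WT, with a counting interval of 2.46 to 664. It rose by voom at day 3 (adjusted p = 0.0331) but not without KO replicate 1, WT replicate 1 or WT replicate 2 (adjusted p of 0.127, 0.121 and 0.232). Hoxc4 had 10 and 5 reads in WT and 2 and 0 in KO at day 0 (adjusted p = 0.149, voom). Its KO values in FPKM lay below WT at all 4 days, as in PRO-seq, but the later days rest on few reads. At day 3 it had 3 and 4 reads in WT and 0 and 1 in KO, too few for voom. At day 6 it had 3 and 3 against 3 and 2, parted by the library scaling (adjusted p = 0.810, voom). At day 9 it had 10 and 5 against 3 and 3 (adjusted p = 0.402, voom). Hoxd8 had 17 and 7 reads in WT and 3 and 2 in KO at day 0 and 8 and 7 against 2 and 1 at day 3, with KO below WT at days 0, 3 and 6 (adjusted p of 0.218, 0.0705 and 0.330, voom). Hoxb7 had 9 and 3 reads in WT and none in KO at day 0, a KO level at least 3.83-fold lower (adjusted p = 0.0538, voom).

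The 3′ genes Hoxb1, Hoxb2 and Hoxb3, which act in the hindbrain, had at most 1 read per library at day 0. Hoxb1 had no read at day 0, and at day 6 it had 1 and 2 reads in WT and 8 and 7 in KO (adjusted p = 0.105, voom). At day 9 it had 28 and 5 reads in WT and 9 and 6 in KO, Hoxb2 had 21 and 3 against 13 and 2, and Hoxb3 had 24 and 2 against 11 and 4. At day 9 WT replicate 1 was high in all 3 genes and KO replicate 1 stood above KO replicate 2, so the groups overlapped in each.

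Counted over the members with at least 10 reads, libraries that did not overlap were counted in each direction at each day. The members counted differ between days, and the change of these counts was not tested. Reads were summed over both genotypes for this filter too, so a sparse member could enter through the group where it was high. At day 6 Hoxa10, Hoxb1, Hoxb3 and Hoxc6 entered through KO, and at day 9 Hoxa7, Hoxa10, Hoxb4 and Hoxd4 did. At day 0 Hoxb7, Hoxc4, Hoxd1 and Hoxd8 entered through WT. The counts in each direction therefore cannot show a shift of the Hox genes. Some groups were parted by the library scaling alone, with equal reads in a WT and a KO library. At day 6 Hoxb3, counted above, had 2 reads in replicate 2 of both genotypes. Hoxc4, counted below, had 3 and 3 reads in WT and 3 and 2 in KO. At day 9 Hoxa7, counted above, had 2 reads in replicate 2 of both genotypes. At day 0, 6 of 14 members had both KO libraries below both WT libraries and 2 had both above, beside 22.7% and 23.2% of all genes with as many reads. At day 3 the counts were 4 below and 4 above of 13, beside 32.9% and 32.3%. At day 6 they were 3 below and 9 above of 14, beside 30.1% in either direction, and at day 9 they were 1 below and 7 above of 15, beside 27.8% and 27.7%. By position, the 9 members above at day 6 were Hoxb1, Hoxb3, Hoxd1 and Hoxd4 of groups 1 to 4, Hoxc6, and Hoxa10, Hoxb9, Hoxb13 and Hoxc13 of groups 9 to 13. The summed RNA level of all members at day 9 was 2.53 and 1.31 FPKM in WT and 4.73 and 3.02 in KO, and at day 0 it was 3.41 and 2.38 in WT and 3.14 and 1.83 in KO. Replicate 1 had the higher sum in both genotypes at both days.

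Markers of several cell types differed between the genotypes. The counts of called markers below stand beside 21.2% of all genes called by limma at day 3, 13.3% at day 6 and 5.46% at day 9. At day 6 the 6 endoderm markers summed to 0.454 to 0.842 FPKM in WT and 4.14 to 17.2 in KO, and the 1 tested was called higher in KO. The 6 fibroblast markers summed to 5.24 to 6.10 in WT and 8.16 to 8.20 in KO at that day, and the 1 tested was called higher. The 6 blood and endothelium markers summed lower in KO, 12.9 to 13.3 against 20.7 to 24.6, and the 1 tested was called lower. At day 9 the ranges of the streak markers overlapped, 25.6 to 42.2 in WT and 12.1 to 40.7 in KO. The part of the markers in the Hox values was not tested, and in bulk RNA a change in the share of cells and a change in RNA per cell cannot be told apart. Of the 8 pluripotency markers 6 were called lower in KO and 1 higher at day 3 (sums of 6329 to 7280 FPKM in WT and 3625 to 4964 in KO), and 5 lower and 1 higher at day 6 (5458 to 6321 and 3243 to 4261). At day 9 none was called and they still summed to at least 2892 FPKM. Of the 6 trophoblast markers 3 were tested at day 3 and all 3 were called higher (6.84 to 7.77 in WT and 17.3 to 23.7 in KO). At day 6 their sums were 8.75 to 12.7 in WT and 17.4 to 65.7 in KO, with 0 of 3 called. At day 9 the ranges overlapped, 56.6 to 112 in WT and 44.9 to 136 in KO, with 1 of 4 called higher. The targeted gene, Kmt2b, had 9.44 and 11.8 FPKM in WT and 9.46 and 9.49 in KO at day 0 and was lower in KO at days 3 and 6 (log2 difference -1.09 and -0.84, adjusted p = 0.00464 and 0.00762, limma). At day 9 Kmt2b had 15.5 and 13.3 in WT and 10.8 and 6.94 in KO (-0.67, adjusted p = 0.106, limma). In PRO-seq it was not lower in KO, with 11.9 and 13.9 in WT and 13.8 and 15.8 in KO (0.19, adjusted p = 0.497, limma). The stretch that Cre removes is not given in the sources used here, so the total over the gene does not check the labels at day 0 or in PRO-seq. Replicates of a group are not stated to be separate cultures, and p-values then measure only the spread between these libraries.

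Genes that act upstream of, with or beside the Hox clusters were read from 6 lists, chosen with earlier results of these data known. The caudal factors Cdx1, Cdx2 and Cdx4, which switch on trunk Hox genes, were below the filter at all RNA days. Cdx2 had 0.0432 and 0.0152 FPKM in WT and 0.202 and 0.0923 in KO at day 0, and 0.277 and 0.128 in WT and 0.893 and 0.436 in KO at day 9, with KO above on both days and no test. Cdx1 had 1.13 and 1.50 in WT and 1.14 and 1.07 in KO in PRO-seq (adjusted p = 0.702), and Cdx4 had 1.74 and 1.46 against 1.18 and 2.12 (adjusted p = 0.994, limma).

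Retinoic acid induces the 3′ Hox genes, and a synthesis gene and a carrier gene were lower in KO at day 0. Of 17 genes read from that list, 8 were tested at day 0 and 2 were called, both lower: Aldh1a2, which makes retinoic acid, had 3.47 and 2.51 FPKM in WT and 0.736 and 0.743 in KO, and Crabp1, a retinoic acid binding protein, had 18.4 and 16.1 in WT and 4.65 and 3.91 in KO. On the log2(FPKM + 1) scale Aldh1a2 fell by 1.19 (SE 0.18, adjusted p = 0.0196) and Crabp1 by 1.79 (SE 0.16, adjusted p = 0.00500, limma), at a day when 3.32% of all 11318 genes were called. At day 3, when 21.2% of all genes were called, 2 of 9 tested fell (Aldh1a2 and Crabp1) and 2 rose (Crabp2 and the receptor Rxrg). At day 6, with 13.3% of all genes called, Aldh1a2 fell and Rxrg rose. At day 9, with 5.46% called, 1 of 11 fell and 2 rose.

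The gene that fell at day 9 was Cyp26a1, which degrades retinoic acid and is itself a target of it. It had 12.9 and 8.41 FPKM in WT and 4.16 and 1.43 in KO (log2 difference -1.69, SE 0.35, adjusted p = 0.0466, limma), and WT had stood at 0.0952 and 0.0547 at day 6. The 2 that rose at day 9 were the receptor Rarg, with 24.0 and 26.9 in WT and 41.0 and 43.1 in KO (adjusted p = 0.0269), and Crabp2, with 3.05 and 2.84 in WT and 7.97 and 5.30 in KO (adjusted p = 0.0443). No gene of the list passed limma in PRO-seq, where 10 were tested. The median log2 difference of the tested genes was -0.03 at day 0 and -0.04 at day 9, beside 0.01 and 0.02 for all genes.

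**Figure D4:**
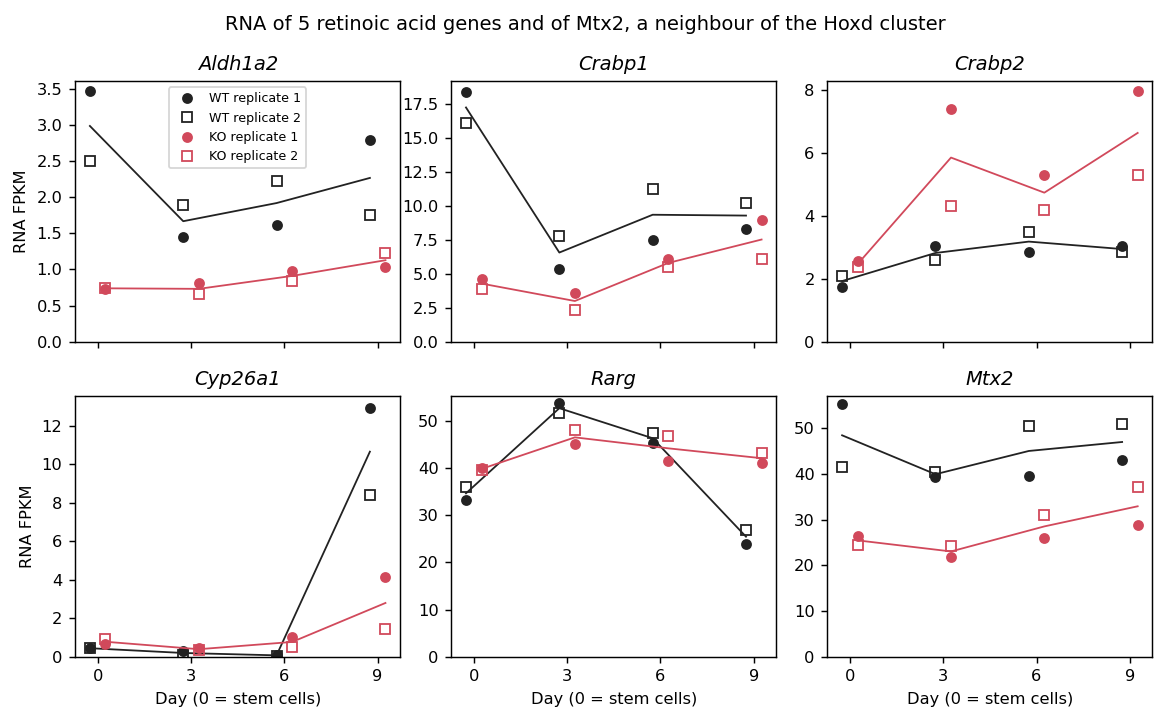
RNA level in FPKM (vertical axes, from 0, scaled to each gene) of 5 retinoic acid genes and Mtx2 at days 0, 3, 6 and 9 (horizontal axis). Points are libraries, black for WT and red for KO, filled for replicate 1 and open for replicate 2, and lines join the means of 2. Aldh1a2 and Mtx2 lie lower in KO at all days, and Cyp26a1 in WT is high at day 9 alone (12.9 and 8.41).

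The genes that flank the clusters fell where they were called, with 1 exception. Mtx2, the neighbour of Hoxd1 and a mitochondrial outer membrane protein, had 55.3 and 41.5 FPKM in WT and 26.5 and 24.4 in KO at day 0, with both KO libraries below. Mtx2 fell by 0.89 at day 0 (SE 0.17, adjusted p = 0.0375), by 0.77 at day 3 (SE 0.08, adjusted p = 0.00599) and by 0.64 at day 6 (SE 0.14, adjusted p = 0.0321, limma). At day 9 it had 43.1 and 50.9 in WT and 28.7 and 37.1 in KO (adjusted p = 0.116), and in PRO-seq 8.62 and 8.17 against 5.97 and 6.29 (adjusted p = 0.127). Near the Hoxa cluster Hibadh, Skap2 and Snx10 fell at day 3, and Hibadh and Snx10 at day 6 (log2 differences from -0.78 to -0.38). The 4 calls of 8 genes tested at day 3, beside 21.2% of all genes, were all lower, and of the 4 of 8 at day 6, beside 13.3%, all but Cbx5 (0.42, adjusted p = 0.0192), which borders Hoxc, were lower. Hotair, a noncoding RNA of the Hoxc cluster, had no read in any RNA library and 0.436 to 0.683 FPKM in PRO-seq. Evx2, beside Hoxd13, had at most 0.00788 FPKM in RNA and 0.354 to 0.948 in PRO-seq.

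Of 8 TALE cofactors that bind DNA with Hox proteins, 6 were tested at each RNA day, and 1 was called at day 3 and 1 at day 6, beside 21.2% and 13.3% of all genes. Pbx3 fell at day 3 (log2 difference -0.43, adjusted p = 0.0354) and Meis2 at day 6 (-0.68, adjusted p = 0.0179, limma), and none of the 8 was called at day 0, at day 9 or in PRO-seq. Of 13 axial and tail bud genes, Wnt3 and Nkx1-2 rose at day 6 (1.25 and 0.96, adjusted p = 0.00334 and 0.0381, of 4 tested), and Mesp2 rose in PRO-seq (0.92, adjusted p = 0.0295, of 7 tested). Of 14 chromatin regulators, all tested in every table, 3 were called at day 3 (Kmt2b and the Polycomb subunits Suz12 and Rnf2) and 3 at day 6 (Kmt2b, Suz12 and Jarid2), all lower in KO (limma), beside 21.2% and 13.3% of all genes called at those days. The count at day 3 is near that share. Suz12 had 165 and 168 FPKM in WT and 84.4 and 112 in KO at day 3, and 145 and 137 in WT and 94.0 and 92.3 in KO at day 6.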

How the data were processed

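RNA-seq of 16 libraries and PRO-seq of 4 were deposited as FPKM, 1 table per day and 1 for PRO-seq. Per the submitters' processing notes, the authors used TopHat and DESeq2 for RNA, cutadapt 1.14, Trimmomatic 0.33, Bowtie 1.1.2 and DESeq2 for PRO-seq, and build mm9; how these made the FPKM, and whether the Drosophila spike-in entered it, is not given in the sources used here. In the deposited FPKM every value was a whole number of reads (tolerance 0.01) times a step per library over a gene length shared by all libraries, which gave 29018998 to 34476636 reads on genes in RNA and 16328581 to 20048306 in PRO-seq, of which the 10 highest genes took 5.56% to 7.51% and 45.9% to 54.2%. Replicates differed by more than counting noise in every group.

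KO was tested against WT within each table with limma 3.58.1 (R 4.3.3). Values entered as log2(FPKM + 1) and a gene needed a mean of 1 FPKM over the 4 libraries. The fit used a mean-variance trend, and p-values were adjusted by Benjamini-Hochberg over all genes and called at an adjusted p below 0.05. A fold change on that scale understates the change of low genes. Alternatives were pseudocounts of 0.1 and 0.5, filters of 0.1 and 5 FPKM or none, quantile normalization, a replicate block, a pooled spread, each library left out, and voom on recovered reads. The Hox members, the lists and the voom filters of 10 and 40 reads were chosen with earlier results of these data known. All members are accounted for; per-library values are given for those tested, for the highest of each cluster and for others singled out after their values were seen. The steps were tested on simulated data. Levels across days and assays were scaled separately and are descriptions. Peak files were not analysed here, as their build has no annotation in the reference used. Of the 38 loci, 19 overlap another gene in RefSeq GRCm38.p6, so their counts are uncertain. A further Hox gene and some genes of the linked lists are not reported here, and the lists' counts and medians are without them.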

Additional observations from a re-analysis of the deposited data

Results flagged for a closer look

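The KO effect on Hoxd1 differed between days by a test of the difference itself. The difference of the log2 KO changes was 4.20 (day 6 minus day 0) and 3.82 (day 9 minus day 0), with adjusted p of 0.0420 and 0.0491 in limma's voom model over the 16 RNA libraries. At day 0 the level was 0.216 and 0.245 FPKM in WT and 0.0179 and 0.0177 in KO, and at day 6 it was 0.146 and 0.0697 in WT and 0.229 and 0.211 in KO. By limma with a filter of 0.1 FPKM neither difference passed (adjusted p = 0.0873 and 0.0963). The KO effect within day 6 and within day 9 did not pass voom (adjusted p = 0.252 and 0.574). Most fits with 1 library left out lost the call for the difference, as stated above. The values rest on 1 to 17 reads per library.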

How the results depend on the processing

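In PRO-seq the single Hox call, Hoxd1, became 0 with a pseudocount of 0.1, with no filter, with a filter of 5 FPKM (which removes Hoxd1) or with 0.1 FPKM and a pseudocount of 0.1. It became 2 with the replicate block, with 0.1 FPKM and the block, and with voom on at least 10 reads. The Hoxd1 log2 difference with a pseudocount of 0.1 was -1.66 (adjusted p = 0.0539, limma). Quantile normalization and a pseudocount of 0.5 left that count as it was. In RNA no Hox gene was testable at 1 FPKM. With 0.1 FPKM and the block the calls were 3, 0, 1 and 1 at days 0, 3, 6 and 9. With 0.1 FPKM and a pooled spread they were 1, 0, 1 and 1, with 0.1 FPKM alone or with a pseudocount of 0.1 they were 0, 0, 1 and 1, and with voom 1, 1, 1 and 2. For the difference from day 0, 1 member was called at day 6 by voom and with 0.1 FPKM and a pseudocount of 0.1 (Hoxd1 in both), and 1 at day 9 by voom (Hoxd1) and with no filter (Hoxd4). All-gene counts at days 0, 3, 6, 9 and in PRO-seq were 376, 2356, 1490, 623 and 218. They were 0, 959, 333, 0 and 0 with no filter and 72, 1425, 894, 346 and 68 at 5 FPKM. By voom on at least 10 reads they were 857, 3081, 2260, 566 and 675, and voom at 1 FPKM gave 329 in PRO-seq. A pooled spread gave 1134 at day 0 and 1811 at day 9, and with 0.1 FPKM 1607 and 2377.

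The replicate block gave 2007, 3667, 2537, 1398 and 1290, and with 0.1 FPKM 2842, 3559, 2253, 1348 and 1145. Same-numbered libraries correlated in their deviations (r = 0.57, 0.36, 0.25, 0.31 and 0.36), but the labels do not say that a number marks a shared culture and there are 2 pairs per table, so the numbers are not taken as pairs. With the block Hoxc13 joined Hoxd1 in PRO-seq (adjusted p = 0.0471, limma), and with 0.1 FPKM and the block Hoxc4 did.

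In RNA no Hox gene was testable by limma at 1 FPKM, so leaving out a library could not change its calls there. With each library left out in turn, the Hoxd1 log2 difference in PRO-seq ran from -1.33 to -0.94 by limma, and its call was lost, as stated above. By voom the Hox calls ran from 1 to 2 in PRO-seq and from 0 to 1, 0 to 1, 0 to 2 and 0 to 4 at days 0, 3, 6 and 9, and those for a difference from day 0 from 0 to 1 at days 6 and 9. The all-gene counts ran, by limma, from 0 to 511, 151 to 3059, 157 to 2684 and 92 to 1109 at the 4 days and 0 to 31 in PRO-seq. By voom they ran from 594 to 929 at day 0 (701 and 924 between), 105 to 3318 at day 3 (120 and 1348 between), 687 to 4101 at day 6 (844 and 2699 between) and 36 to 2044 at day 9 (107 and 1999 between), and in PRO-seq from 306 to 1217 (341 and 955 between). With 1 library in a group, that library is assumed to vary like the others. Hoxa7 in PRO-seq turned, by voom, from -0.21 with all libraries to 0.14 without WT replicate 1, and Hoxc12 from 0.34 to -0.048 without KO replicate 2 by limma, the lowest of its values with 1 library left out, of which 0.73 was the highest. The causes of these shifts were not tested. Depth limits the RNA values, since the members had 86 to 331 reads per library in all.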
